A study of Danio rerio with 6 samples.

Results

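The genes described here encode the ligands, antagonists, receptors and Smads of the bone morphogenetic protein (BMP) and transforming growth factor beta (TGF-beta) pathways, together with the Id genes that BMP signalling switches on. They were chosen by name, taking symbols that start with bmp, gdf, smad, nog or id and a digit (for id, nothing after the digit), or with bmpr, tgfb, acvr or inhb, with 1 gene of that pattern left out. The rule gave 65 rows with 63 distinct symbols among the 29978 genes measured, since *id1* and *bmpr1bb* each stand on 2 rows with different gene identifiers.

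BMP and TGF-beta ligands are secreted dimers that bring together type I and type II receptor kinases at the cell surface. The type II receptor phosphorylates the type I receptor, which in turn phosphorylates receptor-regulated Smads, and these enter the nucleus with the common Smad, Smad4. BMP ligands act mostly through Smad1, Smad5 and Smad9, whereas TGF-beta and activin ligands act through Smad2 and Smad3. Smad6 and Smad7 are induced by the signal and dampen it. In the vertebrate heart, BMP signals from atrioventricular myocardium and TGF-beta signals around the cushions are known for their part in valve formation.

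RNA was sequenced from hearts dissected from zebrafish embryos at 56 h post fertilization (hpf) and at 48 hpf, with 3 pools of hearts at each stage, numbered 1, 2 and 3 in the labels. The labels name no mutation or treatment at either stage, while the study's methods describe treating all animals with phenylthiourea (PTU) against pigment formation. The labels give the line as AB, a wild-type strain, and the study's methods give the embryos as *Tg(myl7:EGFP)*, a transgene in which a myocardial promoter drives a green fluorescent protein. Both stages fall in the hours over which endocardial cells of the atrioventricular canal begin to form the valve, and the comparison asked which transcripts differed between them. The dissected heart holds myocardium, endocardium and blood together, so in these libraries fewer cells of a type and less RNA per cell cannot be told apart.

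Values are normalized counts, that is, the reads of each gene scaled so that libraries of unlike depth can be compared. They are not scaled by transcript length, so levels are not compared between genes. The libraries held 19610492, 22110002 and 25427381 gene-assigned reads at 56 hpf and 14369087, 26942838 and 14937287 at 48 hpf. Replicate 1 at 48 hpf stood apart from the other 48 hpf pools in its myocardial markers. Its summed counts for 12 myocardial markers (such as *myl7* and *vmhc*) were 382658, within the range at 56 hpf, whereas replicates 2 and 3 at 48 hpf had 807228 and 950583. Across all pools the myocardial sum was 358509 to 410207 at 56 hpf and 382658 to 950583 at 48 hpf, and all 12 markers had a negative log2 fold change. For 9 endocardial and endothelial markers the sum was 18441 to 19868 at 56 hpf and 17134 to 32293 at 48 hpf. Of these, 8 of 9 had a negative log2 fold change, and 0 passed the adjusted threshold. Epidermal markers summed to 430839 to 733272 at 56 hpf and 140836 to 389136 at 48 hpf, with 10 of 10 positive and 1 of them past the adjusted threshold. For skeletal muscle the sum was 26724 to 36629.6 at 56 hpf and 12631 to 28072 at 48 hpf. Of its markers 13 of 14 were positive, 10 of them past the adjusted threshold. The markers with the highest counts, *acta1b* and *ckma*, had log2 fold changes of -0.29 and 0.00, whereas the median of the 14 was 3.20. For cartilage the sum was 8197 to 9276 at 56 hpf and 3086 to 6676 at 48 hpf. Of these markers 5 of 9 were positive, all 5 past the adjusted threshold, and 4 were negative. The highest cartilage markers at 48 hpf, *sox9a* and *sox9b*, had log2 fold changes of -0.34 and -0.22, whereas the median of the 9 was 2.40. Blood markers, chiefly embryonic globins and other red cell genes, summed to 9124 to 26567 at 56 hpf and 54145 to 73568 at 48 hpf. All 11 were negative, 6 of them past the adjusted threshold. Neural markers summed to 1031 to 2201 at 56 hpf and 741 to 1209 at 48 hpf, and those of liver and yolk to 1123 to 22314 at 56 hpf and 2203 to 8442 at 48 hpf. Other pools stood apart in other markers. The blood sum at 56 hpf was 9124 in replicate 1, against 22362 and 26567 in replicates 2 and 3. The liver and yolk sum at 56 hpf was 1123 in replicate 2, against 21497 and 22314 in replicates 1 and 3. The epidermal sum at 48 hpf was 140836 in replicate 3, against 389136 and 314096 in replicates 1 and 2. No marker was at 0 in all 6 pools. The part of these shifts in the values of the pathway genes was not tested.

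**Figure D1:**
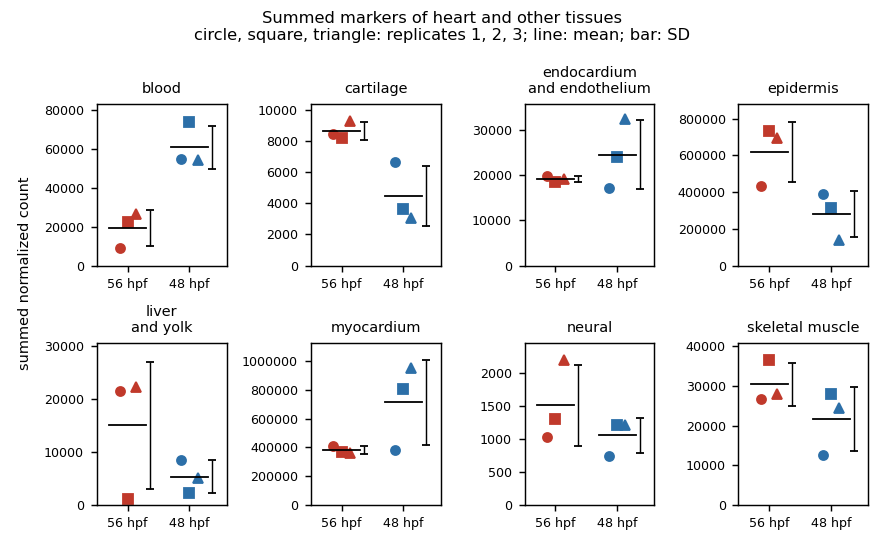
Summed normalized counts of markers of 8 tissues in each pool, 56 hpf left and 48 hpf right, with the mean (line) and SD (bar). Replicate 1 at 48 hpf (circle) had a myocardial sum of 382658, near the 56 hpf pools, and the blood sums did not overlap between stages.

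None of the 65 rows taken by name passed an adjusted p of 0.05 between the stages (limma on log2 values with the replicate number as a block, Benjamini-Hochberg adjustment over all 20805 genes tested). Of the 65 rows, 61 passed the filter on low counts. Across all genes, 181 were higher at 56 hpf (0.87%) and 44 lower (0.211%). Some other fits called members. Without the block 2 passed (*gdf6a* and *gdf10b*, 3.28%, against 2.69% of all genes). The likelihood ratio test of edgeR called 4 (*smad6a* and *smad9* besides these, 6.56%, against 8.37%) and DESeq2 called 3 (those without *smad9*, 4.92%, against 7.22%), while edgeR's quasi-likelihood test called 0 (against 0.750%). At an unadjusted p under 0.05, 7 of the 61 members were higher at 56 hpf (11.5%, against 11.2% of all genes) and 10 were lower (16.4%, against 7.31% of all genes). In 8 members all 3 pools at 56 hpf lay above all 3 pools at 48 hpf (13.1%, against 13.2% of all genes), and in 9 they lay below (14.8%, against 11.1%). The members' median log2 fold change was -0.14, beside a median of -0.01 for all genes, and 39 of 61 were negative (63.9%, against 50.5% of all genes). With the scale factors of the deposited values, the median over all genes was 0.11 and that of the members -0.02, and the split at an unadjusted p under 0.05 was 10 higher (16.4%, against 14.8% of all genes on that scale) and 7 lower (11.5%, against 4.80%). On that scale 31 of 61 were negative, as the values of 8 members near 0 (*acvr1b*, *bmp7b*, *smad1*, *smad2*, *smad3b*, *tgfb1a*, *tgfb2* and *tgfbrap1*) turned positive. Leaving out replicate 1 at both stages gave 9 higher and 17 lower at an unadjusted p under 0.05, where 3283 and 2344 of 20248 genes were, and 6 members past the adjusted threshold (9.84%, against 10.3% of all genes). Without replicate 2, 1 of 60 members tested was higher and 2 were lower, where 1024 and 420 of 19676 genes were, and 0 passed the adjusted threshold, where 7 genes in all did.

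**Figure D2:**
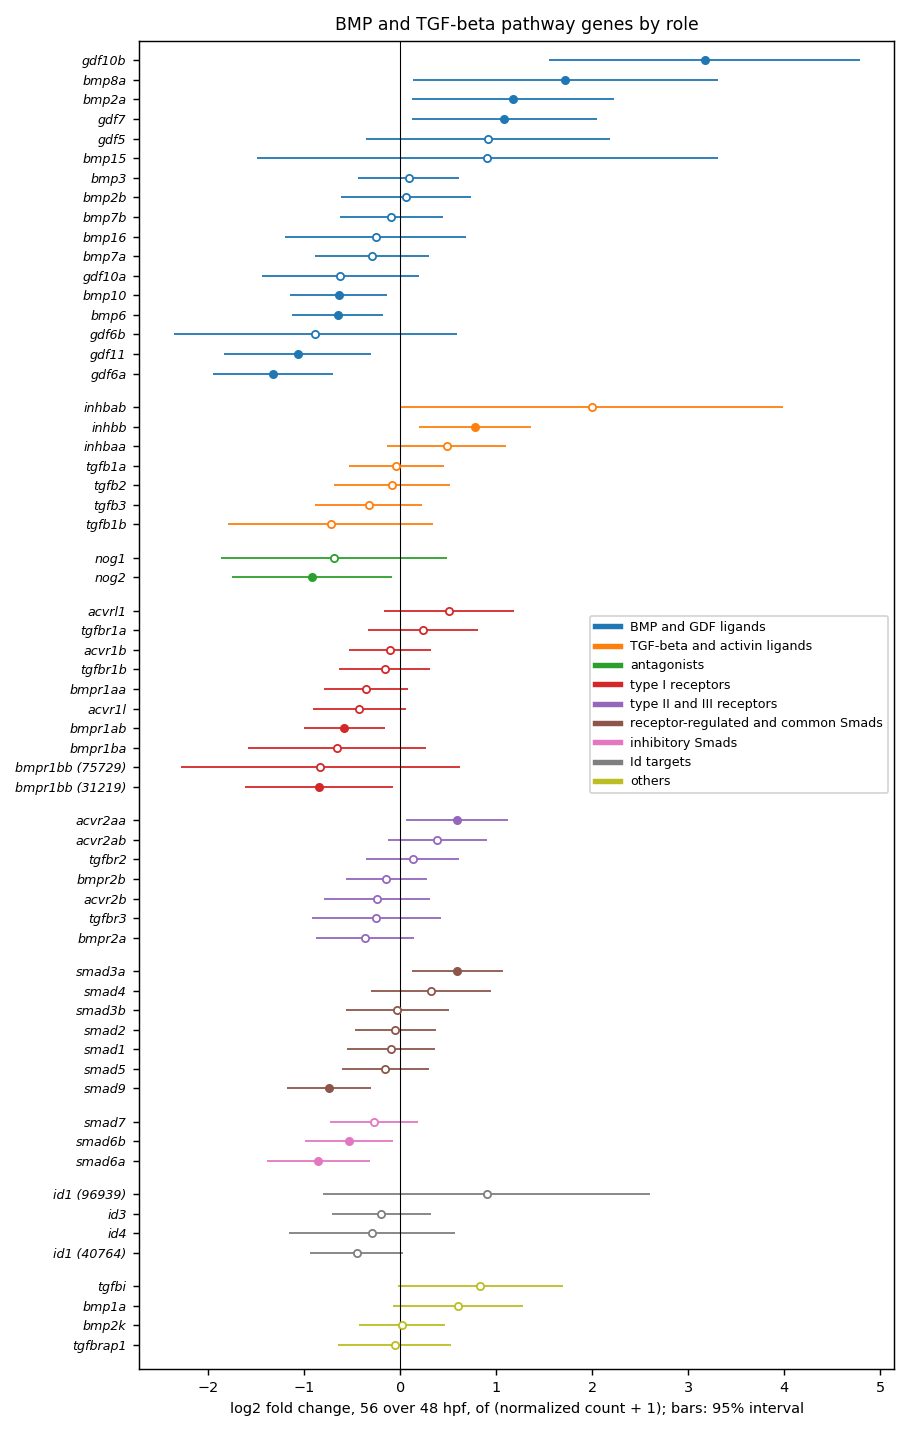
Log2 fold change of normalized count + 1, 56 hpf over 48 hpf, for the 61 members tested, grouped by role. Bars are 95% intervals and filled points have an unadjusted p under 0.05. The values span -1.33 (*gdf6a*) to 3.17 (*gdf10b*).

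Among the BMP and GDF ligands, *gdf6a* had the smallest p of all members, and *gdf10b* the largest fold change. Of 19 ligands on the list 17 were tested, with 4 higher and 4 lower at an unadjusted p under 0.05 (23.5% each, against 11.2% and 7.31% of all genes) and a median log2 fold change of -0.09. *gdf6a* (ENSDARG00000053479), a BMP-family ligand known in zebrafish for patterning the dorsal retina, had 223, 233 and 153 normalized counts at 56 hpf (replicates 1, 2 and 3, the order used throughout), against 386, 592 and 552 at 48 hpf. Its highest pool at 56 hpf lay below its lowest pool at 48 hpf. The means were 203 ± 43.7 at 56 hpf and 509.9 ± 109 at 48 hpf (SD, n = 3 pools each), with log2 fold change -1.33, standard error 0.26, adjusted p = 0.0761 (limma). Without the replicate block the adjusted p was 0.0389. With replicates 1, 2 and 3 left out in turn at both stages, the log2 fold change of *gdf6a* was -1.59, -1.32 and -1.07 (adjusted p = 0.0163, 0.577 and 0.0867, limma).

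*gdf10b* (ENSDARG00000073891), also known as a form of Bmp3b, was a low-count gene with 58, 114 and 50 reads at 56 hpf, against 12, 4 and 4 at 48 hpf. In normalized values it had 58.7, 113 and 41.7 normalized counts at 56 hpf, against 15.9, 2.84 and 5.07 at 48 hpf. All pools at 56 hpf lay above those at 48 hpf, where replicates 2 and 3 held 4 reads each. Of its 48 hpf pools only replicate 1 reached the filter's minimum count, so the gene passed the filter through its 56 hpf pools. It was not tested when at least 10 reads were asked of every library. The difference had log2 fold change 3.17, standard error 0.68, adjusted p = 0.0836 (limma), and without the replicate block the adjusted p was 0.0421. With replicates 1, 2 and 3 left out in turn at both stages, the log2 fold change of *gdf10b* was 3.87, 2.31 and 3.35 (adjusted p = 0.0261, 0.599 and 0.0299, limma). The other copy, *gdf10a*, had 159.9, 105 and 114 normalized counts at 56 hpf, against 304, 238 and 96.4 at 48 hpf, a log2 fold change of -0.62 with a 95% interval of -1.44 to 0.19.

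The other 3 ligands with a lower mean at 56 hpf and an unadjusted p under 0.05 were *gdf11*, *bmp6* and *bmp10*. *gdf11*, an activin-like ligand that signals through Smad2 and Smad3, had 111, 75.1 and 31.7 normalized counts at 56 hpf, against 252, 114 and 87.5 at 48 hpf. The stages overlapped, since replicate 1 at 56 hpf lay above replicate 3 at 48 hpf (log2 fold change -1.07, standard error 0.32, adjusted p = 0.155, limma). *bmp6*, which in mammals is made by endothelial cells of the liver and controls hepcidin, had 302, 400.3 and 393 normalized counts at 56 hpf, against 531, 640.1 and 544 at 48 hpf. Its pools did not overlap (log2 fold change -0.65, standard error 0.20, adjusted p = 0.160). *bmp10*, which in mouse is made by myocardium and is needed for growth of the trabeculated chambers, had 223, 379.6 and 318 normalized counts at 56 hpf, against 301, 573 and 591 at 48 hpf. Each pool was lower at 56 hpf than the pool of the same number, but replicate 1 at 48 hpf lay below replicates 2 and 3 at 56 hpf (log2 fold change -0.64, standard error 0.21, adjusted p = 0.186, limma).

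The remaining ligands with an unadjusted p under 0.05 had higher means at 56 hpf and low counts. *gdf7*, known in mouse as a roof plate signal, had 106, 57.3 and 113 normalized counts at 56 hpf, against 31.9, 23.5 and 91.3 at 48 hpf. *bmp2a*, a Bmp2 copy, had 62.7, 36.6 and 27.6 normalized counts at 56 hpf, against 30.5, 14.2 and 11.4 at 48 hpf. Replicate 3 at 48 hpf reached into the 56 hpf range for *gdf7*, and replicate 1 at 48 hpf did so for *bmp2a* (log2 fold changes 1.09 and 1.17, adjusted p = 0.226 and 0.230, limma). *bmp8a* had 36.4, 55.4 and 25.05 normalized counts at 56 hpf, against 22.6, 4.27 and 11.4 at 48 hpf, without overlap (log2 fold change 1.72, standard error 0.67, adjusted p = 0.241, limma).

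The other ligands gave intervals that included 0. *bmp3*, a ligand that in mammals opposes other BMPs, had 1299, 964 and 959 normalized counts at 56 hpf, against 893, 957 and 1169 at 48 hpf. The stages overlapped, and the log2 fold change of 0.09 (95% interval -0.44 to 0.61) turned to -0.14 without replicate 1. *bmp2b*, known in zebrafish for ventral patterning of the embryo, averaged 201 ± 29.5 at 56 hpf and 197 ± 56.8 at 48 hpf (SD, n = 3 pools each). *bmp7a* and *bmp7b* had log2 fold changes of -0.29 (-0.88 to 0.31) and -0.09 (-0.63 to 0.44), and *bmp16* one of -0.26 (-1.20 to 0.69). *gdf5*, *gdf6b* and *bmp15* averaged 74.9, 25.6 and 14.4 at 56 hpf and 36.03, 40.6 and 9.51 at 48 hpf, and their intervals were wide (-0.36 to 2.18, -2.36 to 0.59 and -1.49 to 3.31 on the log2 scale). *gdf2*, which encodes Bmp9, was too low to test, with 3, 0 and 2 reads at 56 hpf, against 0, 1 and 1 at 48 hpf. *gdf9*, known as an oocyte ligand, was also not tested, with 27, 6 and 0 reads at 56 hpf, against 2, 0 and 0 at 48 hpf.

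Among the 7 TGF-beta and activin ligands, the activin subunit gene *inhbb* had an unadjusted p under 0.05. *inhbb*, which encodes the beta B subunit of activin, had 425, 594 and 515 normalized counts at 56 hpf, against 358, 302 and 237 at 48 hpf. All pools at 56 hpf lay above those at 48 hpf (log2 fold change 0.78, standard error 0.25, adjusted p = 0.168, limma). With replicates 1, 2 and 3 left out in turn at both stages, the log2 fold change of *inhbb* was 1.05, 0.68 and 0.61 (adjusted p = 0.0338, 0.820 and 0.371, limma). The beta A subunit copies had positive log2 fold changes as well. *inhbab* had 24.3, 117 and 106 normalized counts at 56 hpf, against 13.3, 3.56 and 76.1 at 48 hpf, and *inhbaa* averaged 175 ± 62.8 at 56 hpf and 123 ± 34.4 at 48 hpf (SD, n = 3 pools each). Replicate 1 at 56 hpf lay below replicate 3 at 48 hpf for *inhbab* (log2 fold change 2.00, standard error 0.84, adjusted p = 0.270, limma), and the value was 0.65 without replicate 2 at both stages, 1.03 without replicate 2 at 48 hpf and 3.08 without replicate 3 at 48 hpf, both of these with no block. The pools of *inhbaa* overlapped as well (log2 fold change 0.48, standard error 0.26, adjusted p = 0.373, limma). The TGF-beta genes gave no difference past the threshold. *tgfb3*, a TGF-beta ligand, had 2671, 3304 and 2924 normalized counts at 56 hpf, against 2346, 4584 and 4763 at 48 hpf. Replicate 1 at 48 hpf lay below all 3 pools at 56 hpf, while the other 48 hpf pools lay above them (log2 fold change -0.33, standard error 0.23, adjusted p = 0.493, limma). *tgfb2*, known in mouse for its role in the atrioventricular cushions, averaged 1475 ± 177 at 56 hpf and 1603 ± 462 at 48 hpf (SD, n = 3 pools each, log2 fold change -0.08, 95% interval -0.69 to 0.52). *tgfb1a* and *tgfb1b* had log2 fold changes of -0.04 (-0.53 to 0.45) and -0.72 (-1.79 to 0.35).

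The noggins, secreted proteins that bind BMP ligands and keep them from their receptors, were at low counts. *nog2* had 48.6, 91.9 and 91.8 normalized counts at 56 hpf, against 99.6, 265 and 107 at 48 hpf. All pools at 56 hpf lay below those at 48 hpf, and replicate 2 at 48 hpf lay well above the other pools (log2 fold change -0.92, standard error 0.35, adjusted p = 0.234, limma). *nog1* averaged 33.5 ± 1.63 at 56 hpf and 63.6 ± 35.6 at 48 hpf (SD, n = 3 pools each, log2 fold change -0.69, 95% interval -1.86 to 0.49). *nog3* had too few reads to test, with 3, 2 and 6 reads at 56 hpf, against 0, 9 and 2 at 48 hpf.

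**Figure D3:**
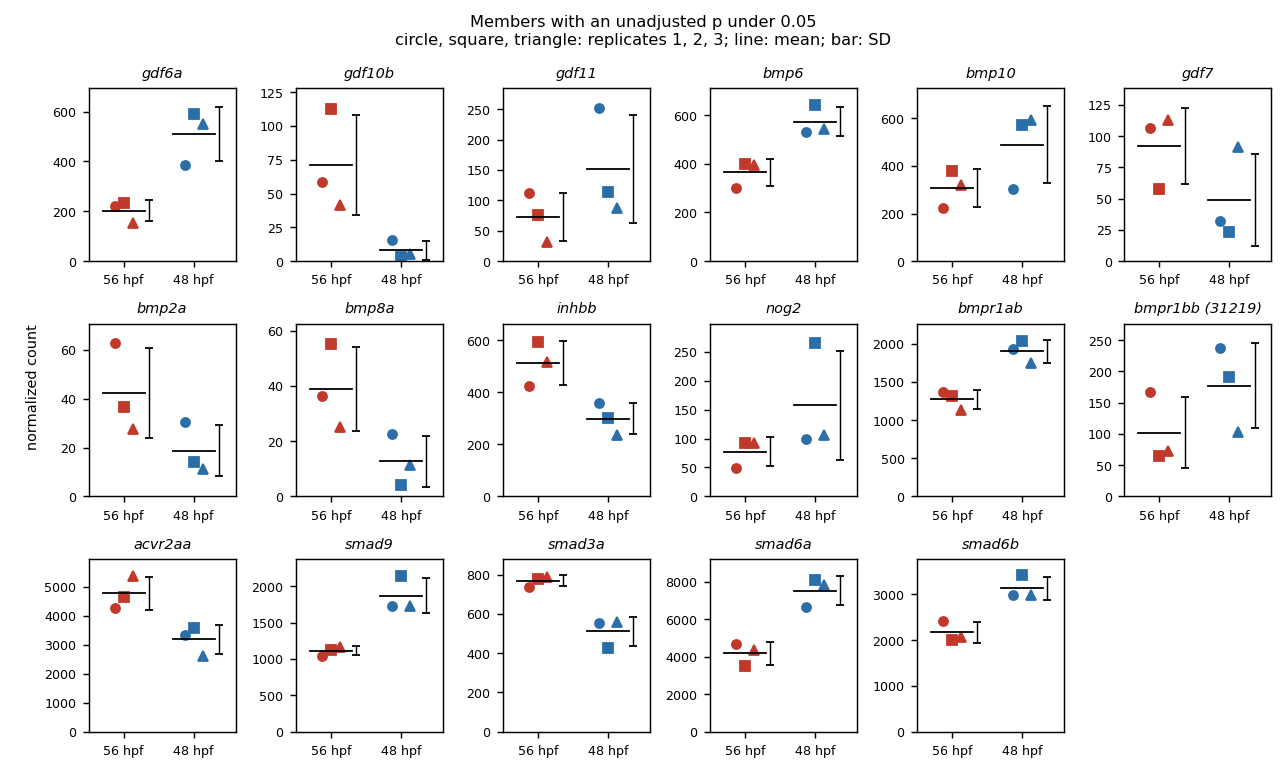
Normalized counts of the 17 members with an unadjusted p under 0.05 in each pool, 56 hpf left and 48 hpf right, with the mean (line) and SD (bar). In *smad6a* the 56 hpf pools lie between 3504 and 4665 and the 48 hpf pools between 6659 and 8093, whereas in *gdf11*, *bmp10*, *gdf7*, *bmp2a* and *bmpr1bb* (ENSDARG00000031219) the stages overlap.

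Of the 10 type I receptor rows, 2 of them for *bmpr1bb*, 8 had a negative log2 fold change, where 50.5% of all genes did. On the deposited scale *acvr1b* turned to 0.02. The median was -0.39, and 2 rows were lower at an unadjusted p under 0.05, where 7.31% of all genes were. In the same pools the median was -0.43 for the endocardial markers and -0.64 for the myocardial markers. The part of either in the receptor values was not tested. *bmpr1ab* (ENSDARG00000045097), 1 of the copies of the BMP receptor Alk3, had 1367, 1313 and 1132 normalized counts at 56 hpf, against 1926, 2035 and 1741 at 48 hpf. Each 56 hpf pool lay below every 48 hpf pool (log2 fold change -0.58, standard error 0.18, adjusted p = 0.159, limma). The other copy, *bmpr1aa*, had 1462, 1379.8 and 1186 normalized counts at 56 hpf, against 1649, 1935 and 1575 at 48 hpf, also without overlap (log2 fold change -0.36, standard error 0.18, adjusted p = 0.352, limma). The BMP receptor Alk6 has the copies *bmpr1ba* and *bmpr1bb*. The *bmpr1bb* row with ENSDARG00000031219 had 167, 65.2 and 72.6 normalized counts at 56 hpf, against 238, 191 and 103 at 48 hpf, and replicate 1 at 56 hpf lay above replicate 3 at 48 hpf (log2 fold change -0.85, standard error 0.33, adjusted p = 0.237, limma). The other *bmpr1bb* row, ENSDARG00000075729, averaged 11.04 ± 3.28 at 56 hpf and 22.9 ± 14.4 at 48 hpf (SD, n = 3 pools each, log2 fold change -0.83, 95% interval -2.29 to 0.62). *bmpr1ba* averaged 179.8 ± 40.6 at 56 hpf and 347 ± 228 at 48 hpf (SD, n = 3 pools each, log2 fold change -0.66, standard error 0.39, adjusted p = 0.409, limma). With replicates 1, 2 and 3 left out in turn at both stages, the log2 fold change of *bmpr1ba* was -0.34, -0.39 and -1.25 (adjusted p = 0.659, 0.956 and 0.0435, limma).

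*acvr1l*, known in zebrafish as the BMP type I receptor Alk8, had 1267, 1580.5 and 1532 normalized counts at 56 hpf, against 1314, 2484 and 2287 at 48 hpf. Replicate 1 at 48 hpf lay within the range at 56 hpf and the other 48 hpf pools lay above it (log2 fold change -0.43, standard error 0.20, adjusted p = 0.321, limma). *acvrl1*, the endothelial receptor Alk1, had 663, 669 and 902 normalized counts at 56 hpf, against 659.8, 574 and 367 at 48 hpf. Its pools did not overlap, although replicate 1 differed little between the stages (log2 fold change 0.51, standard error 0.28, adjusted p = 0.387, limma). The activin type I receptor gene *acvr1b* had a log2 fold change of -0.10 (-0.53 to 0.32). The TGF-beta type I receptor copies *tgfbr1a* and *tgfbr1b* had 0.24 (-0.33 to 0.82) and -0.16 (-0.64 to 0.32).

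Of the 7 type II and type III receptor genes, *acvr2aa* had the largest log2 fold change and the only unadjusted p under 0.05. *acvr2aa* (ENSDARG00000011188), an activin type IIA receptor that also binds BMP ligands, had 4255, 4658 and 5374 normalized counts at 56 hpf, against 3328, 3586 and 2620.4 at 48 hpf. The lowest 56 hpf pool lay above the highest 48 hpf pool (log2 fold change 0.59, standard error 0.22, adjusted p = 0.231, limma). The other copy, *acvr2ab*, had 405, 402 and 418 normalized counts at 56 hpf, against 379.7, 285 and 282 at 48 hpf, also without overlap (log2 fold change 0.39, standard error 0.22, adjusted p = 0.388, limma). *acvr2b* averaged 1284 ± 349 at 56 hpf and 1486 ± 164 at 48 hpf (SD, n = 3 pools each), a log2 fold change of -0.24 (-0.80 to 0.31). The BMP type II receptor copies *bmpr2a* and *bmpr2b* had log2 fold changes of -0.37 (-0.88 to 0.14) and -0.14 (-0.57 to 0.28). The TGF-beta type II receptor gene *tgfbr2* had 0.13 (-0.35 to 0.61), and *tgfbr3*, encoding the co-receptor betaglycan, -0.25 (-0.92 to 0.42).

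Among the receptor-regulated and common Smads, *smad9* and *smad3a* had an unadjusted p under 0.05, with opposite signs. *smad9* (ENSDARG00000021938), also called Smad8, carries the BMP signal and had 1045, 1118 and 1168 normalized counts at 56 hpf, against 1728, 2144 and 1726 at 48 hpf. The 3 pools at 56 hpf spanned 1045 to 1168 and lay below every 48 hpf pool. The means were 1110.4 ± 61.8 at 56 hpf and 1866 ± 240.3 at 48 hpf (SD, n = 3 pools each), with log2 fold change -0.74, standard error 0.19, adjusted p = 0.109 (limma). The other BMP Smads gave smaller values. *smad1* averaged 983 ± 72.2 at 56 hpf and 1063 ± 220.0 at 48 hpf (SD, n = 3 pools each, log2 fold change -0.09, 95% interval -0.55 to 0.37) and *smad5* 1352 ± 132 at 56 hpf and 1510.4 ± 234 at 48 hpf (SD, n = 3 pools each, log2 fold change -0.15, 95% interval -0.61 to 0.30).

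*smad3a* (ENSDARG00000036096), which carries the TGF-beta and activin signal, had 738, 779 and 789 normalized counts at 56 hpf, against 551, 427 and 557 at 48 hpf. The pools did not overlap (log2 fold change 0.60, standard error 0.20, adjusted p = 0.187, limma). *smad3b* had a log2 fold change of -0.03 (-0.57 to 0.51) and *smad2*, of the same arm, -0.05 (-0.47 to 0.37). *smad4*, the common Smad, had 168, 201 and 162 normalized counts at 56 hpf, against 137, 133 and 153 at 48 hpf. These pools did not overlap, and the 95% interval of the difference included 0 (log2 fold change 0.32, standard error 0.26, adjusted p = 0.552, limma).

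The inhibitory Smads were lower at 56 hpf than at 48 hpf in every pool of the same number, for all 3 genes. So were 17 of the 61 members and 4201 of the 20805 genes tested, and the numbers may not pair the pools. Among the inhibitory Smads, *smad6a* and *smad6b* had an unadjusted p under 0.05. *smad6a* (ENSDARG00000053209), which blocks BMP receptor signalling and is known in mouse to be expressed in the endothelium and the valves, had 4665, 3504 and 4360.3 normalized counts at 56 hpf, against 6659, 8093 and 7824 at 48 hpf. Every pool at 56 hpf lay below every pool at 48 hpf. The means were 4176 ± 602 at 56 hpf and 7525 ± 762 at 48 hpf (SD, n = 3 pools each), with log2 fold change -0.85, standard error 0.23, adjusted p = 0.121 (limma). With replicates 1, 2 and 3 left out in turn at both stages, the log2 fold change of *smad6a* was -1.02, -0.68 and -0.86 (adjusted p = 0.0264, 0.828 and 0.195, limma). *smad6b* had 2423, 2003 and 2077 normalized counts at 56 hpf, against 2987, 3420.2 and 2988 at 48 hpf, again without overlap (log2 fold change -0.53, standard error 0.19, adjusted p = 0.218, limma). *smad7*, which also blocks the TGF-beta arm, had 411, 422 and 509 normalized counts at 56 hpf, against 453, 551 and 624 at 48 hpf. Its stages overlapped (log2 fold change -0.27, standard error 0.19, adjusted p = 0.494, limma). The endocardial markers had a median log2 fold change of -0.43 and the myocardial markers -0.64 in the same pools, and the part of either in the Smad values was not tested.

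In the RefSeq annotation of the GRCz12tu assembly, which is not the assembly the counts were made on, *smad3a* and *smad6a* are neighbours with no protein-coding gene between them, and so are *smad3b* and *smad6b*. The difference between neighbours was not tested. In the first pair the log2 fold changes were 0.60 and -0.85, and in the second -0.03 and -0.53. Other neighbours among the members were *smad5* with *tgfbi*, and *gdf10b* with *gdf2*.

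The Id genes encode helix-loop-helix proteins without a DNA-binding region, and they are direct targets of BMP Smads. None of the 4 rows had an unadjusted p under 0.05. *id1* (ENSDARG00000040764) had 1686, 2213 and 2415 normalized counts at 56 hpf, against 2779.8, 3212 and 2598 at 48 hpf. All pools at 56 hpf lay below those at 48 hpf (log2 fold change -0.45, standard error 0.20, adjusted p = 0.298, limma). A second row with the symbol *id1*, ENSDARG00000096939, had 33.4, 12.8 and 20.04 normalized counts at 56 hpf, against 21.2, 18.5 and 2.54 at 48 hpf, with overlap (log2 fold change 0.90, 95% interval -0.80 to 2.61). *id3* averaged 965 ± 201 at 56 hpf and 1095 ± 138 at 48 hpf (SD, n = 3 pools each, log2 fold change -0.19, 95% interval -0.71 to 0.32) and *id4* 228 ± 42.8 at 56 hpf and 297 ± 119 at 48 hpf (SD, n = 3 pools each, log2 fold change -0.30, 95% interval -1.16 to 0.57).

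The name rule also takes in 5 genes that are not ligands, antagonists, receptors, Smads or Id genes. *tgfbi*, an extracellular matrix protein first found as a TGF-beta target, had 2171, 3157 and 2616 normalized counts at 56 hpf, against 2614, 1501 and 802 at 48 hpf. Replicate 1 at 48 hpf lay within the range at 56 hpf, and the other 48 hpf pools lay below it (log2 fold change 0.84, standard error 0.36, adjusted p = 0.282, limma). The log2 fold change of *tgfbi* without replicates 1, 2 and 3 in turn was 1.39, 0.72 and 0.40 (adjusted p = 0.0162, 0.870 and 0.636, limma). *bmp1a* encodes a metalloprotease that trims procollagen rather than a BMP ligand, and averaged 1343 ± 436 at 56 hpf and 860.3 ± 137 at 48 hpf (SD, n = 3 pools each, log2 fold change 0.60, standard error 0.28, adjusted p = 0.317, limma). The value of *bmp1a* was 0.96, adjusted p = 0.0479 without replicate 1, and 0.25, adjusted p = 0.959 without replicate 2. *bmp1b* had too few reads to test, with 0, 5 and 0 reads at 56 hpf, against 1, 4 and 2 at 48 hpf. The kinase gene *bmp2k* and *tgfbrap1*, whose product binds TGF-beta receptors, had log2 fold changes of 0.02 (-0.43 to 0.46) and -0.06 (-0.65 to 0.53).

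Many zebrafish members exist as a and b copies left by the genome duplication of teleost fish. For 12 such pairs in which both copies were tested, the share of the a copy in the summed normalized counts of the pair was compared between the stages. Because a share is taken within each pool, scaling between libraries does not enter it, although transcript length differs between copies and the share is not a ratio of molecules. In 6 pairs the pools did not overlap, and how often pairs of other genes in the series do so was not counted. Each gave the smallest p an exact two-sided permutation test of 3 against 3 pools can reach, p = 0.1 (adjusted p = 0.2 over the 12 pairs), so no pair could pass the threshold. The *smad6a* share was 65.8, 63.6 and 67.7% at 56 hpf, against 69.03, 70.3 and 72.4% at 48 hpf. The *smad3a* share was 75.5, 76.2 and 80.2% at 56 hpf, against 71.3, 62.2 and 72.7% at 48 hpf. Of the 6, *bmpr1aa* had the narrowest spread, with 51.7, 51.2 and 51.2% at 56 hpf, against 46.1, 48.7 and 47.5% at 48 hpf. The *gdf10a* share averaged 64.8 ± 14.4% at 56 hpf and 96.3 ± 2.20% at 48 hpf (SD, n = 3 pools each), and its lowest pool, replicate 2 at 56 hpf, had 48.2%. That pair was kept only because *gdf10b* passed the filter through its 56 hpf pools. The *bmp2a* share, at 24.7, 13.5 and 13.4% at 56 hpf, against 10.5, 8.40 and 6.16% at 48 hpf, and the *tgfbr1a* share, at 37.7, 33.4 and 37.2% at 56 hpf, against 32.9, 27.9 and 29.01% at 48 hpf, were higher at 56 hpf in every pool. The pairs of *acvr2aa*, *bmp7a*, *bmpr2a*, *gdf6a*, *inhbaa* and *tgfb1a* overlapped. The copies of *bmpr1b* were left out because *bmpr1bb* has 2 rows.

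**Figure D4:**
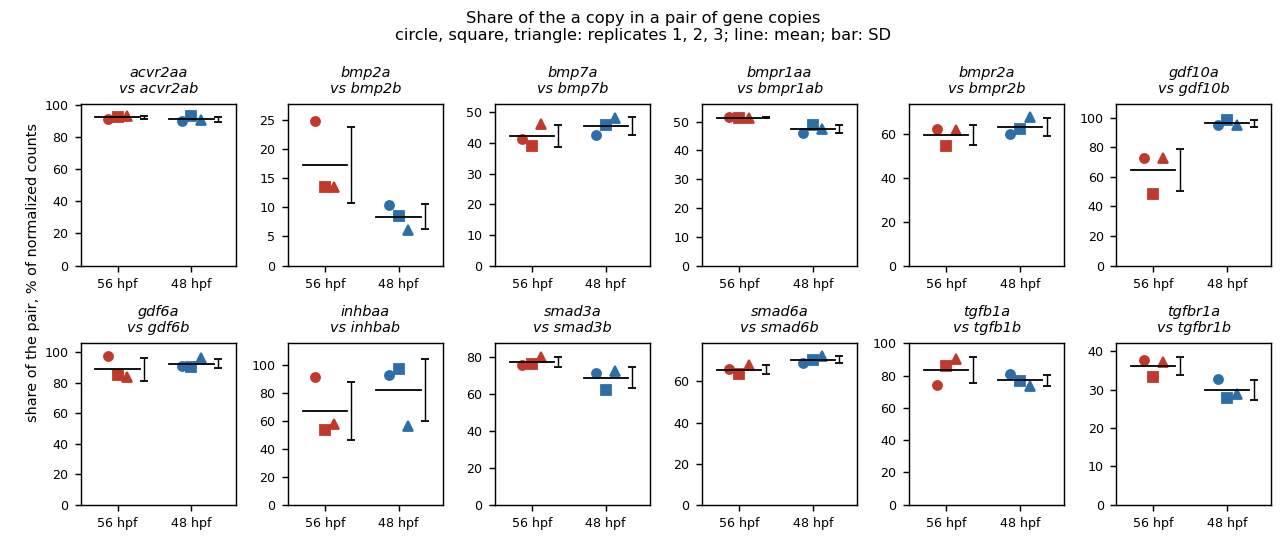
Share of the a copy in the normalized counts of each of 12 gene pairs, in percent, for each pool, 56 hpf left and 48 hpf right, with the mean (line) and SD (bar). The *smad6a* share averaged 65.7% at 56 hpf and 70.6% at 48 hpf, and the *bmpr1aa* share 51.4% at 56 hpf and 47.5% at 48 hpf.

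Other genes of the pathway, from a list of 84 symbols by role, were read in the same fit. Of these, 61 symbols were found on 63 rows, and 52 rows were tested. One gene rose and 1 fell at an adjusted p under 0.05. At an unadjusted p under 0.05, 4 were higher at 56 hpf (7.69%, against 11.2% of all genes) and 6 lower (11.5%, against 7.31%), and the median log2 fold change was -0.11. *fstl1a*, encoding a secreted follistatin-like protein, fell, with 284, 430.0 and 323 normalized counts at 56 hpf, against 646, 1039.8 and 805 at 48 hpf (log2 fold change -1.26, standard error 0.19, adjusted p = 0.0397, limma). *msxa*, a homeobox gene of a family that BMP signalling induces, rose, with 110.3, 69.2 and 65.1 normalized counts at 56 hpf, against 15.9, 11.4 and 7.61 at 48 hpf (log2 fold change 2.72, standard error 0.43, adjusted p = 0.0449, limma). The stages did not overlap in either gene. Each call was lost without replicate 2 at both stages (adjusted p = 0.517 for *fstl1a* and 0.403 for *msxa*, limma), and that of *msxa* also under edgeR's quasi-likelihood test (adjusted p = 0.0525). With single pools left out and no block, the call of *fstl1a* was lost for each pool but replicate 1 at 48 hpf (adjusted p = 0.0570 to 0.169), and that of *msxa* for replicates 2 and 3 at 56 hpf and replicate 2 at 48 hpf (adjusted p = 0.0808 to 0.0975).

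The genes with the next smallest p included secreted and membrane regulators of BMP signalling. *bambia*, a receptor-like protein without a kinase that dampens the signal, had 1102, 1525 and 1477 normalized counts at 56 hpf, against 1716, 3008 and 2804 at 48 hpf. *bmper*, a secreted BMP-binding protein of endothelial cells, had 1388, 813 and 877 normalized counts at 56 hpf, against 1763, 1905 and 2001 at 48 hpf. In both genes every pool at 56 hpf lay below every pool at 48 hpf (log2 fold change -0.85, standard error 0.19, adjusted p = 0.0859 for *bambia*, and log2 fold change -0.92, standard error 0.24, adjusted p = 0.114 for *bmper*, limma). *tob1b*, an antiproliferative protein that binds Smads, had 1752, 2825 and 3013 normalized counts at 56 hpf, against 1241, 1314 and 839.6 at 48 hpf, all above those at 48 hpf (log2 fold change 1.15, standard error 0.27, adjusted p = 0.102, limma). *msxe* had 83.98, 55.4 and 45.9 normalized counts at 56 hpf, against 256, 197 and 57.1 at 48 hpf, with replicate 3 at 48 hpf inside the range at 56 hpf (log2 fold change -1.24, standard error 0.39, adjusted p = 0.165, limma). The Id genes of the list, *id2a* and *id2b*, had log2 fold changes of 0.10 (-0.37 to 0.58) and -0.24 (-1.06 to 0.59). Of 10 further ligands, such as the Nodal genes *ndr1*, *ndr2* and *spaw*, only 3 had enough reads to test, and *ndr2* had no read in any pool.

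**Figure D5:**
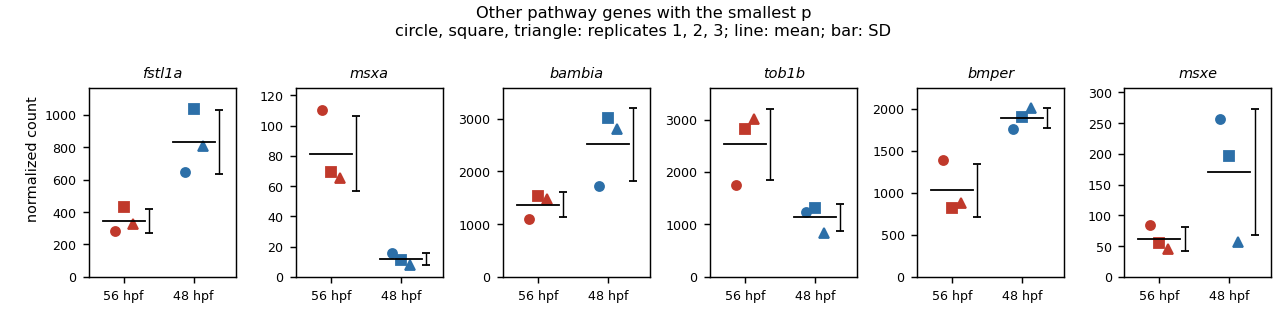
Normalized counts of 6 other pathway genes with the smallest p in each pool, 56 hpf left and 48 hpf right, with the mean (line) and SD (bar). The 56 hpf pools of *msxa* lie between 65.1 and 110.3 and the 48 hpf pools between 7.61 and 15.9.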

How the data were processed

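Gene-level RNA-seq values of 6 pools of zebrafish hearts, 3 at 56 hpf and 3 at 48 hpf, were read from 1 table per stage. Per the labels, RNA was amplified with random and poly-T primers before library preparation, whereas the study's methods describe an mRNA kit, and which applies was not settled. Single-end reads were aligned to Zv9, uniquely aligned reads were kept, and genes were counted with HTSeq on Ensembl annotation. The labels name CASAVA 1.8.2, Bowtie2 2.1.0, HTSeq 0.5.4p3 and DESeq 1.10.1. Unique alignment leaves out reads shared by near-identical copies, so counts of a and b copies are uncertain where their sequences match, and the strand setting of the counting is not given in the sources used here. The deposited signal holds read counts that the authors scaled by library. Every value came out as whole reads within the tolerance used (100%), at 0.710 to 1.33 normalized counts per read. The tolerance was 0.001 of a read for low counts and widened with the count, so the highest counts could not fail it.

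The recovered reads of both tables were scaled together with edgeR's relative log expression factors (ratios of the deposited to these factors were 0.911 to 1.00), and the normalized counts printed are on this scale. Genes were kept by edgeR's filterByExpr (minimum count 10, minimum total 15), and log2(value + 1) was fitted with limma 3.58.1 in R 4.3.3 with an intensity trend and the replicate number as a block, after the study's methods, which adjust for baseline differences between experiments. P-values were adjusted over 20805 genes after Benjamini and Hochberg, and 0.05 was the threshold. Fold changes on this scale understate the change of low genes. Pools at 1 stage differed by more than sampling noise. Alternatives used edgeR 4.0.16 and DESeq2 1.42.0 on the recovered reads. Per its methods the study tested with edgeR, so the limma fit here is not its test. The fit was also run on simulated counts without replicate or tissue differences, and no result here rests on that run.

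Values by pool are given for members with an unadjusted p under 0.05, for the members with the highest mean count and the largest absolute fold change of each role, and for the pathway genes called or with the 6 smallest p. Values by pool of other members were added after their values were seen. Members and lists were chosen with earlier results of these data known. RefSeq gene names (GRCz12tu) matched 59 members, and no sequence was used here.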

Additional observations from a re-analysis of the deposited data

How the results depend on the processing

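None of the 65 rows taken by name passed the threshold in the fit used, and 225 of all genes and 2 of the other pathway genes did. The replicate numbers were kept as a block after the study's methods, but deviations of same-numbered pools correlated by 0.03, 0.19 and -0.05 over genes. The labels also carry further codes, which no same-numbered pools share and whose meaning is not given. Replicate 1 at 48 hpf and replicate 3 at 56 hpf do share a code. The numbers may therefore not pair the pools. Without the replicate block 560 genes and 2 members passed. The likelihood ratio test of edgeR gave 1741 genes, 4 members and 6 pathway genes, and DESeq2 gave 1503, 3 and 5. The pathway counts were 11.5% and 9.62% of those tested, against 8.37% and 7.22% of all genes. The quasi-likelihood test gave 1 pathway gene (1.92%, against 0.750% of all genes). Without a filter 346 genes passed, and with at least 10 reads in every library 135 genes and 1 pathway gene (2.27%, against 0.800% of all genes). Leaving out pools in turn gave 7 to 2076 genes, 0 to 6 members and 0 to 7 pathway genes. The highest counts came without replicate 1 at both stages, with 9.84% of members, 14.0% of pathway genes and 10.3% of all genes. The *bmp3* log2 fold change ran from -0.14 to 0.27. Of these fits, those that left out single pools had no block. Leaving out replicates 1, 2 and 3 at 56 hpf gave 780, 97 and 112 genes, with a *bmp3* value of -0.054 for replicate 1, and at 48 hpf 1176, 132 and 514 genes. The cause of these shifts was not tested. With a replicate left out at both stages, the 6 pairs of gene copies whose shares did not overlap became 6 to 9. Pairs that lie apart with all pools stay apart with fewer, so this count could not fall and does not test stability. Of the log2 fold changes of named genes, 516 kept direction and side of the threshold, 35 passed it, 11 no longer did and 2 reversed. Part of this was fixed in advance, since with all pools in, dropping the block or changing the filter cannot change a log2 fold change. Of the named genes only *fstl1a* and *msxa* were called in the fit used, and genes that stayed uncalled counted as kept. The 516 therefore do not measure stability. With 3 pools a stage, counts of a few reads, as in *gdf2* and *nog3*, could not be tested.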
